A study of Mus musculus with 12 samples.

Results

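The nuclear-encoded subunits of mitochondrial complex I were examined as a group in mouse limb buds with both Mettl14 alleles floxed. Members were all genes in the authors' expression table whose symbol begins with Nduf, continues with a, b, c, s or v, and ends in a number. The rule found 36 of the 31723 genes in the table, on 15 chromosomes, and uses the symbol alone. All 36 passed the filter on low values, which kept 13575 genes for testing.

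Complex I, or NADH:ubiquinone oxidoreductase, is the entry point of electrons from NADH into the respiratory chain of the inner mitochondrial membrane. Its peripheral arm holds the N module, where NADH is oxidised at a flavin, and the Q module, where electrons pass through iron-sulfur clusters to ubiquinone. Its membrane arm pumps protons, and is built of subunits encoded by mitochondrial DNA surrounded by nuclear-encoded accessory subunits. The nuclear genes are scattered over the genome, and their promoters are known targets of the transcription factors NRF1, GABP and YY1. Subunit arms are given below as known from bovine and human work.

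The tissue was the limb bud at E12.5 of mouse development, an outgrowth of mesenchyme covered by epidermis in which cartilage, tendon and muscle are forming. The first group, cKO, carried the genotype Mettl14 flox/flox, and the second, cHet, carried Mettl14 wt/flox and served as control, so that controls too had a floxed allele. METTL14 is the partner of METTL3 in the enzyme that writes N6-methyladenosine (m6A) into RNA. Each genotype had 3 biological replicates, each sequenced as input RNA and as RNA pulled down with an antibody to m6A (IP), which gives 12 libraries. The labels name no Cre driver and do not say whether a replicate pooled embryos, so p-values measure the spread between these samples. Levels were available for the 6 input libraries as FPKM, fragment counts scaled to transcript length and library total, and enrichment of IP over input as 1 peak list per genotype.

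Mettl14 itself had 2.67, 3.07 and 2.63 FPKM in cKO input, against 5.08, 4.54 and 4.39 FPKM in cHet input (log2 change -0.58, SE 0.079, adjusted p = 0.00289). Averaged over 3 libraries, cKO thus retained 59.8% of the cHet level. Of 10 limb mesenchyme markers, 9 were above the filter, among them Prrx1 with 48.4 to 59.8 FPKM in cKO and 46.8 to 55.6 FPKM in cHet, and Pitx1 was below 1 FPKM in every library. Prrx1 changed least of the 9 (log2 change 0.13, adjusted p = 0.357). Of the 9, 6 were called higher in cKO (66.7%, against 18.7% of all tested genes), among them Hand2 with a log2 change of 0.72. In bulk tissue, fewer cells of a type and less RNA per cell cannot be told apart.

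Promoter windows from RefSeq (build GRCm38.p6), which run from 250 bases before to 50 bases after an annotated transcription start, were found for 32 of the 36 genes. Ndufa2, Ndufb9 and Ndufs1 were among those not matched. The windows were searched on both strands for an NRF1 core (CGCANGCG), an ETS core read by GABP (CCGGAAG) and a YY1 core (AANATGGC). The NRF1 letters stood in 10 of the 32 windows (31.2%), against 9.22% of the 27025 genes with a window. The YY1 letters stood in 12 of 32 (37.5%, against 6.96% of all genes), and the ETS letters in 4 of 32, against 9.93% of all genes. At least 1 of the 3 was found in 22 of 32 windows (68.8%), against 22.4% of all genes, and 10 had none. These shares of all genes include genes below the filter, while all members passed it. Each motif was more frequent among tested genes with a window. There the NRF1 letters were present in 1890 genes and absent from 7493, and the YY1 letters present in 988 and absent from 8395. The ETS letters were present in 1959 and absent from 7424, and any of the 3 present in 3982 and absent from 5401. The lines below show 30 bases around an NRF1 match in 6 members whose mRNA fell among the 8 largest declines, and around a YY1 match in Ndufs6 and Ndufc1, each 5′ to 3′ on the strand of the gene. Capitals mark the matched letters.
Ndufb4 NRF1, chr16:37654371-37654400, minus strand: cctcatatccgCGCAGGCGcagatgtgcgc
Ndufa11 NRF1, chr17:56717692-56717721, plus strand: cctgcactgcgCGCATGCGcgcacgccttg
Ndufs6 NRF1, chr13:73328479-73328508, minus strand: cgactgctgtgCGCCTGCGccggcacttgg
Ndufb10 NRF1, chr17:24724431-24724460, minus strand: gctgcccactaCGCAGGCGcagctgtcacc
Ndufa7 NRF1, chr17:33824554-33824583, plus strand: tctcgcgagacCGCACGCGgtacccaggaa
Ndufa5 NRF1, chr6:24527697-24527726, minus strand: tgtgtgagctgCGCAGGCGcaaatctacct
Ndufs6 YY1, chr13:73328433-73328462, minus strand: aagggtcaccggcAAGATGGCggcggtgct
Ndufc1 YY1, chr3:51408915-51408944, minus strand: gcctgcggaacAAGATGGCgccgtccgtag

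The NRF1 match lay 21 to 14 bases before the start in Ndufb4, which held 3 such matches, and 15 to 8 bases before it in Ndufs6. In Ndufa11 it lay 59 to 52 bases before the start and read the same on both strands. Of the 14 NRF1 matches, 1 began after the transcription start, while 7 of the 13 YY1 matches did. These are matches of letters, and binding was not measured.

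Input RNA of cKO and cHet was compared to ask which subunit mRNAs differ when Mettl14 is floxed on both alleles. Most complex I subunit mRNAs were lower in cKO. By limma on log2(FPKM + 1), 31 of 36 fell at an adjusted p under 0.05, against 17.5% of all 13575 tested genes called lower. None rose, against 18.7% of all tested genes called higher. All 36 log2 changes were negative, between -0.72 for Ndufv2 and -0.11 for Ndufs1, except that Ndufs1 turned to 0.0066 when libraries were rescaled to equal FPKM totals. Their median was -0.38, against -0.0027 over all tested genes. In 34 members all 3 cKO values lay below all 3 cHet values, a pattern shown by 25.1% of tested genes. The exceptions were Ndufb7, whose highest cKO value of 8.79 FPKM passed the lowest cHet value of 8.76 FPKM, and Ndufs1.

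**Figure D1:**
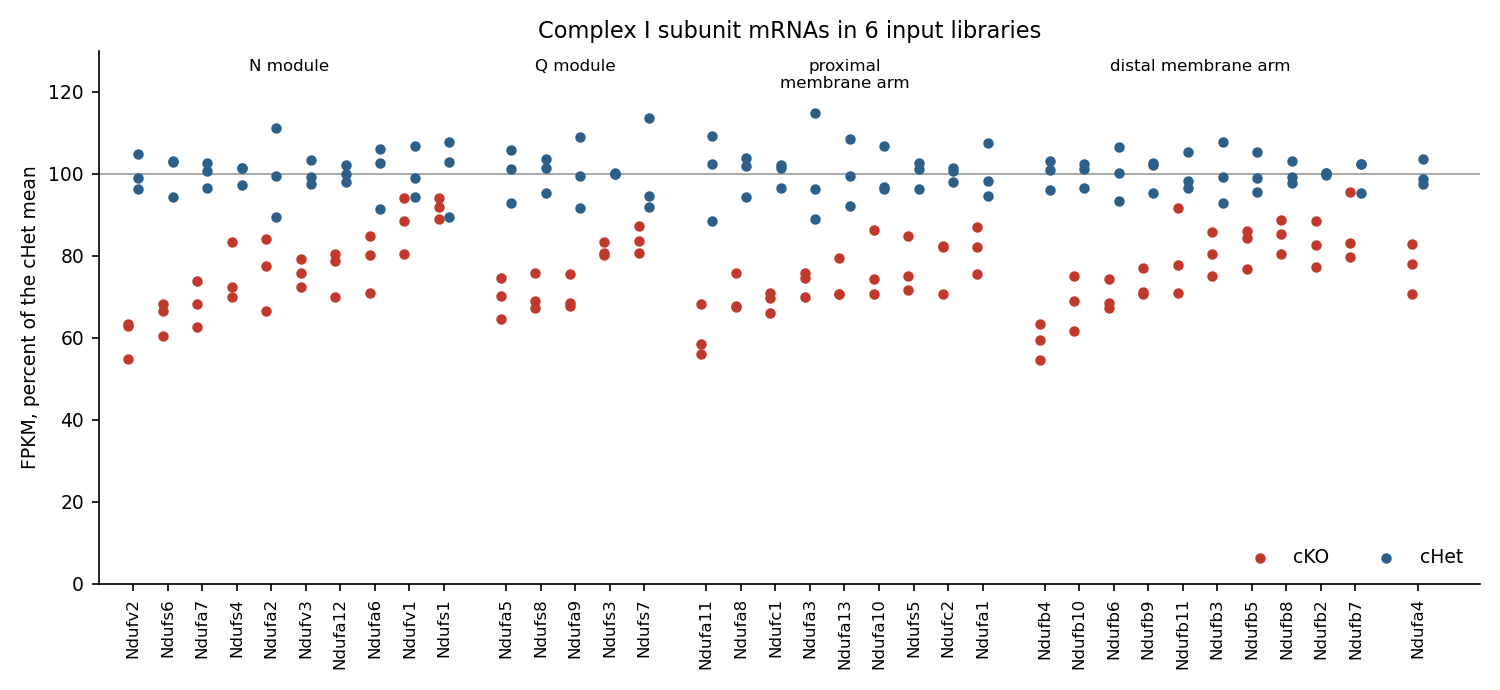
FPKM of 35 complex I subunit genes in the 3 cKO (red, left of each pair) and 3 cHet (blue) input libraries, as percent of the gene's cHet mean, with genes grouped by arm of the complex. Points are single libraries, and the red and blue points overlap only in Ndufb7 and Ndufs1.

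In the plot of levels by library, cKO means ran from 59.1% of the cHet mean in Ndufb4 to 91.7% in Ndufs1. No member came near 0 in any library. Levels in cHet differed much more between genes than between genotypes, from 4.62 ± 0.0095 FPKM for Ndufb2 to 85.4 ± 2.75 FPKM for Ndufa4 (SD, n = 3).

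Of the 10 members of the N module, 8 fell, with a median log2 change of -0.38. Ndufv2, a core subunit that carries an iron-sulfur cluster beside the flavin site, had 41.3, 36.0 and 41.5 FPKM in cKO, against 65.0, 68.8 and 63.2 FPKM in cHet. Its log2 change of -0.72 (SE 0.074, adjusted p = 0.00139) was the lowest of the 36. Ndufs6, a zinc-binding subunit needed late in N module assembly, had 38.0, 33.6 and 37.1 FPKM in cKO, against 57.3, 57.2 and 52.4 FPKM in cHet (log2 change -0.61, adjusted p = 0.00182). The groups lay far apart in both genes relative to the spread within them. Ndufa7, an accessory subunit, had 24.6, 20.9 and 22.8 FPKM in cKO, against 34.3, 33.6 and 32.2 FPKM in cHet (log2 change -0.53, adjusted p = 0.00276). Ndufs4, whose loss in mice is a model of Leigh syndrome, had 17.7, 14.8 and 15.3 FPKM in cKO, against 21.5, 21.5 and 20.6 FPKM in cHet (log2 change -0.39, adjusted p = 0.00816). Ndufa2, Ndufa6, Ndufa12 and Ndufv3 also fell, by log2 changes of -0.39 to -0.33.

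The 2 N module members that did not pass the test are the core subunits next to Ndufv2 in the electron path. Ndufv1, which binds NADH and the flavin, had 21.7, 20.5 and 18.6 FPKM in cKO, against 21.8, 24.7 and 22.9 FPKM in cHet. Its highest cKO library was close to its lowest cHet library (log2 change -0.18, 95% interval -0.37 to 0.00077, adjusted p = 0.107). Ndufs1, which holds further iron-sulfur clusters, had 13.1, 12.7 and 13.4 FPKM in cKO, against 15.4, 14.7 and 12.8 FPKM in cHet. Its groups overlapped (log2 change -0.11, 95% interval -0.30 to 0.069, adjusted p = 0.282). The Ndufs1 gene overlaps Eef1b2 on the other strand, which averaged 149.8 FPKM in cKO and 194.8 FPKM in cHet. The sources used here do not state whether counting used strand. In all, 16 members overlapped another gene on either strand, also among those that fell. On the other strand, Ndufa3 overlaps Tfpt (10.8 FPKM in cKO, 14.3 FPKM in cHet). Ndufb5 likewise overlaps Mrpl47 (4.97 FPKM in cKO, 7.23 FPKM in cHet), and Ndufb2 overlaps Braf (3.75 FPKM in cKO, 3.30 FPKM in cHet). The part of such overlaps in the members' values was not tested.

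Of the 6 members of the Q module, 4 fell, with a median log2 change of -0.38. Ndufa5, an accessory subunit, had 30.7, 28.3 and 32.6 FPKM in cKO, against 46.3, 44.3 and 40.6 FPKM in cHet (log2 change -0.51, adjusted p = 0.00396). Ndufs8, a core subunit that carries iron-sulfur clusters, had 30.3, 26.9 and 27.6 FPKM in cKO, against 38.1, 41.4 and 40.5 FPKM in cHet (log2 change -0.49, adjusted p = 0.00291). Both genes had every cKO library well below every cHet library. Ndufa9, which has the fold of a short-chain dehydrogenase, also fell (log2 change -0.48, adjusted p = 0.00525). Ndufs3, a core scaffold of this module, had 20.5, 19.7 and 19.8 FPKM in cKO, against 24.6, 24.6 and 24.5 FPKM in cHet (log2 change -0.28, adjusted p = 0.00572). The replicates of Ndufs3 were close to each other within each genotype. Its gene overlaps Kbtbd4 on the other strand, which went the other way, with 18.9 FPKM in cKO and 12.6 FPKM in cHet on average.

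Ndufs7, a core subunit that carries an iron-sulfur cluster close to the ubiquinone-binding site, did not pass the test. It had 11.1, 10.3 and 10.7 FPKM in cKO, against 11.7, 12.1 and 14.5 FPKM in cHet (log2 change -0.23, 95% interval -0.44 to -0.025, adjusted p = 0.0779). Its 3 cKO values lay below the 3 cHet values, by under 1 FPKM at the closest.

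All 9 members of the proximal membrane arm fell, with a median log2 change of -0.43 (5 fell with equal totals or quantile normalization, 6 without cKO replicate 2 or cHet replicate 2). Ndufa11, a subunit of this arm, had 21.2, 17.4 and 18.2 FPKM in cKO, against 27.5, 31.9 and 34.0 FPKM in cHet (log2 change -0.69, SE 0.10, adjusted p = 0.00377). Ndufa8, a disulfide-bonded subunit facing the intermembrane space, had 39.3, 34.9 and 35.1 FPKM in cKO, against 48.9, 52.7 and 53.9 FPKM in cHet (log2 change -0.50, adjusted p = 0.00322). Ndufc1 had 9.38, 9.21 and 8.74 FPKM in cKO, against 12.8, 13.5 and 13.4 FPKM in cHet (log2 change -0.49, adjusted p = 0.00175). In each of these 3 genes every cKO library was below every cHet library. Ndufa1, Ndufa3, Ndufa10, Ndufa13, Ndufc2 and Ndufs5 fell by log2 changes of -0.43 to -0.29. Among them, Ndufa13, also known as GRIM-19, averaged 28.5 ± 1.96 FPKM in cKO and 38.8 ± 3.2 FPKM in cHet (SD, n = 3 each). Ndufa3 had the widest spread in cHet, with 47.4, 51.4 and 61.2 FPKM.

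Of the 10 members of the distal membrane arm, 9 fell, with a median log2 change of -0.31. The count was 4 with equal FPKM totals, 6 with quantile normalization, 4 without cHet replicate 2, 5 without cKO replicate 2 and 6 without cHet replicate 1. Ndufb4, an accessory subunit of this arm, had 9.58, 8.25 and 8.99 FPKM in cKO, against 14.5, 15.6 and 15.3 FPKM in cHet (log2 change -0.70, SE 0.068, adjusted p = 0.00115). Ndufb10, another disulfide-bonded subunit of the intermembrane space side, had 34.0, 27.9 and 31.2 FPKM in cKO, against 46.3, 45.8 and 43.7 FPKM in cHet (log2 change -0.53, adjusted p = 0.00368). Ndufb6 had 30.0, 27.7 and 27.2 FPKM in cKO, against 40.5, 43.0 and 37.7 FPKM in cHet (log2 change -0.50, adjusted p = 0.00317). None of these 3 genes had overlapping groups. Ndufb2, Ndufb3, Ndufb5, Ndufb8, Ndufb9 and Ndufb11 fell by log2 changes of -0.44 to -0.22. Ndufb7 had 8.79, 7.32 and 7.64 FPKM in cKO, against 8.76, 9.41 and 9.41 FPKM in cHet, and did not pass the test (log2 change -0.20, 95% interval -0.38 to -0.013, adjusted p = 0.0884). Ndufa4, counted with complex IV in current work and assigned to no arm here, was the most abundant member. It had 70.8, 60.3 and 66.6 FPKM in cKO, against 84.4, 88.5 and 83.3 FPKM in cHet (log2 change -0.37, adjusted p = 0.00954).

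Set by role, 3 of the 7 core subunits fell (Ndufv2, Ndufs8 and Ndufs3), with a median log2 change of -0.23 over all 7. The other 29 members, Ndufa4 included, were counted as accessory subunits. Of these 28 fell, with a median of -0.39, of which 18 did with equal FPKM totals and 18 without cHet replicate 2. The difference between core and accessory subunits was not tested. Of the 5 members that did not pass, 4 were core subunits.

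**Figure D2:**
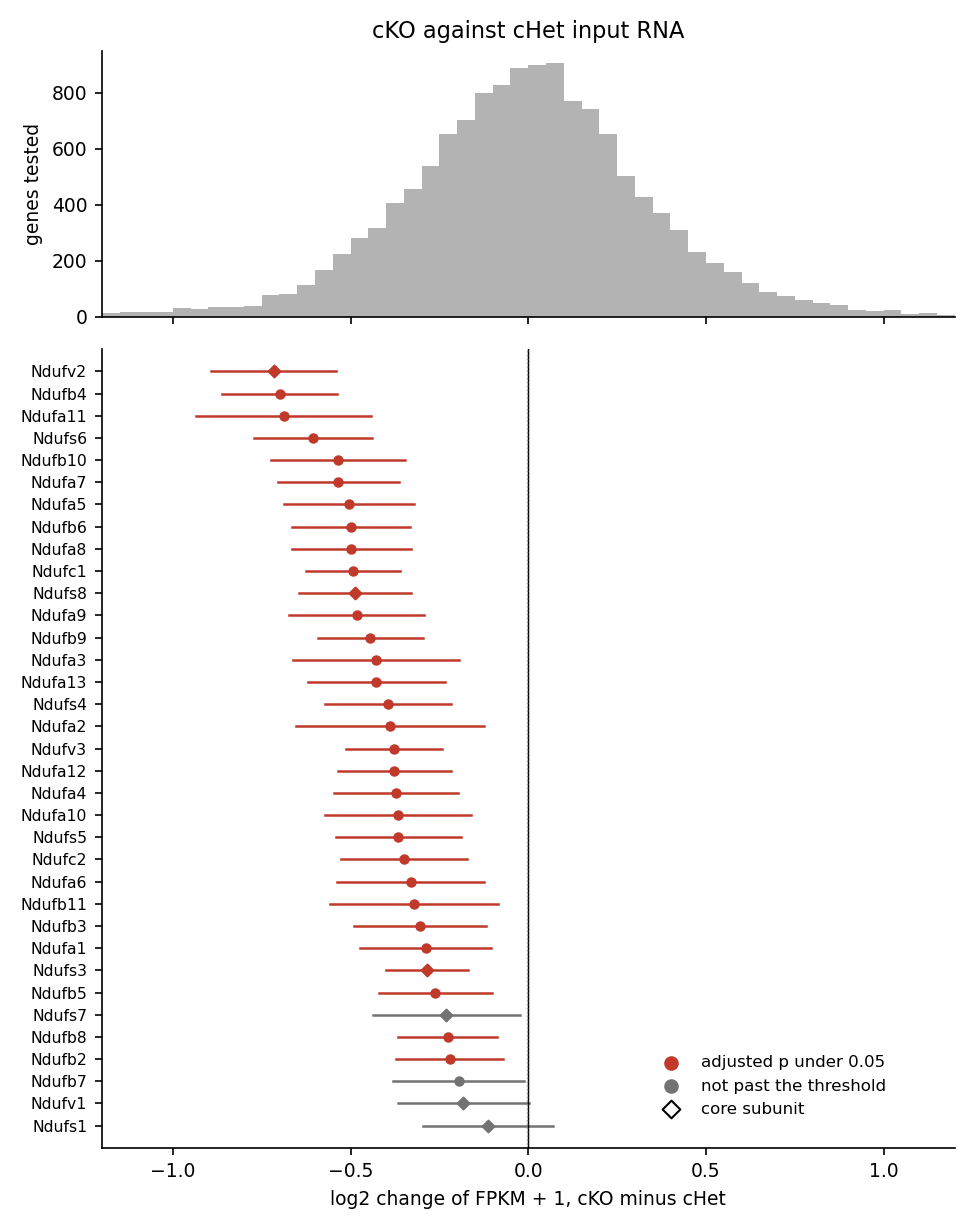
Log2 change of FPKM + 1 in cKO minus cHet for 35 complex I subunit genes with the 95% interval from limma (lower panel, n = 3 libraries per genotype; red, adjusted p under 0.05; grey, not past the threshold; diamonds, core subunits), below a histogram of the same quantity over the 13575 tested genes, of which 107 lie outside the plotted range. All 35 plotted members lie left of 0 with the values as deposited (Ndufs1 turns to 0.0066 with equal FPKM totals), and 31 are red.

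The plot of log2 changes places the members in the left part of the distribution of all genes, with the intervals of Ndufv1 and Ndufs1 reaching past 0. Some rows can share reads with a near-identical copy, so that their split is uncertain. Ndufa12-ps, a pseudogene row, had 109.7 to 114.0 FPKM in cKO and 145.6 to 156.8 FPKM in cHet, above Ndufa12 itself with 20.9 to 24.0 FPKM in cKO and 29.3 to 30.5 FPKM in cHet. Ndufb4c, Ndufs5-ps and Ndufs6b, copies of members, were lower in cKO too, with log2 changes of -0.55, -0.69 and -0.52 (adjusted p = 0.0104, 0.0113 and 0.00289).

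The members' summed level was 1064, 940 and 1004 FPKM in cKO, against 1316, 1386 and 1318 FPKM in cHet. As a share of all FPKM, they made up 0.433%, 0.396% and 0.392% in cKO, against 0.486%, 0.503% and 0.504% in cHet, so the groups did not overlap on either scale. The lowest library was cKO replicate 2 for 28 members and cKO replicate 3 for 8. The highest was cHet replicate 2 for 19, cHet replicate 3 for 10 and cHet replicate 1 for 7.

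Several whole-library measures differed between the genotypes as well. The deposited FPKM summed to 237288 to 255907 in cKO and 261692 to 275300 in cHet. With libraries rescaled to equal totals, the median log2 change of all genes shifted to 0.10, the members' median was -0.26 and 20 of 36 members fell, while 10.3% of all genes did. In that setting 73.6% of all calls were higher in cKO, against 51.6% with the values as deposited. Of 10 skeletal muscle markers 4 were lower in cKO (summed level 418 to 639 FPKM in cKO, 634 to 711 FPKM in cHet, none at 0), and of 5 endothelial markers 2 were lower (33.7 to 37.5 FPKM in cKO, 41.2 to 46.0 FPKM in cHet, none at 0). Of 9 limb mesenchyme markers tested 6 were higher in cKO, with all 10 together at 495 to 604 FPKM in cKO and 364 to 378 FPKM in cHet. Of 8 erythroid markers none passed the test (6363 to 13881 FPKM in cKO, 7845 to 10974 FPKM in cHet), nor did the 4 macrophage markers tested of 6 (13.6 to 16.6 FPKM in cKO, 12.3 to 15.1 FPKM in cHet). Of 5 epidermal markers 1 was higher, Trp63 (176 to 189 FPKM summed in cKO, 149 to 170 FPKM in cHet). These marker calls used the values as deposited, where 17.5% of all tested genes were called lower and 18.7% higher. The epidermal share of 20% was near the latter. The part of total FPKM and of cell type composition in the members' decline was not tested.

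The muscle markers and the members were also set side by side by library. The muscle markers' median deviation from the cHet mean was -0.16, -0.64 and -0.73 on the log2 scale in cKO replicates 1, 2 and 3, while that of the complex I members was -0.30, -0.49 and -0.39. Both sets were nearest to control in cKO replicate 1, which was the highest cKO library for 25 of the 36 members. They differed in the other libraries, with the muscle median lowest in cKO replicate 3 and the members' median lowest in cKO replicate 2. In the same order, the median deviation was -0.18, -0.30 and -0.21 for endothelial markers. For limb mesenchyme markers it was 0.44, 0.53 and 0.48. A link between these sets and the members was not tested.

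The rest of the respiratory chain was set beside complex I. Of 39 nuclear genes of complexes II to V, 33 fell and 1 rose, and the list median was -0.32 in log2 change. With equal FPKM totals or quantile normalization, 18 fell and 1 rose, against 10.3% and 16.25% of all tested genes called lower. Without cHet replicate 2, 17 fell, and without cKO replicate 2, 23 fell, against 9.32% and 10.4% of all tested genes. All 10 complex IV genes fell (4 with equal totals, 3 with quantile normalization, 3 without cHet replicate 2, 4 without cKO replicate 2 and 6 without cKO replicate 3 or cHet replicate 1), among them Cox7b with 71.4, 64.5 and 71.2 FPKM in cKO, against 113.7, 115.2 and 104.0 FPKM in cHet (log2 change -0.68, adjusted p = 0.00144). Of 16 genes of ATP synthase and its inhibitor, 15 fell (10 with equal totals, 10 without cHet replicate 2), with Atp5j at the lowest log2 change of -0.58. In complex II, 3 of 4 fell (1 with equal totals, quantile normalization or without cHet replicate 2). In complex III 5 of 9 fell (3 in each of the same settings). The gene that rose was Uqcrfs1, the Rieske iron-sulfur protein of complex III, with 62.0, 59.3 and 61.3 FPKM in cKO, against 41.2, 41.2 and 38.1 FPKM in cHet (log2 change 0.59, adjusted p = 0.00115). The complex I and complex II to V values come from the same libraries and are not independent.

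Of the 18 assembly factors measured, 4 fell (22.2%) and 3 rose (16.7%), shares near those of all tested genes given above, and the list median was 0.039 in log2 change. With equal FPKM totals 3 fell and 6 rose, with quantile normalization 5 fell and 4 rose, with a median of -0.0067, and without cKO replicate 2 or cHet replicate 2, 2 fell. Ndufaf4, which acts on the Q module, had 14.0, 13.6 and 14.8 FPKM in cKO, against 9.77, 8.52 and 7.62 FPKM in cHet (log2 change 0.66, adjusted p = 0.00289). Ndufaf1, which helps build the membrane arm, had 21.9, 22.4 and 23.1 FPKM in cKO, against 14.4, 14.8 and 13.8 FPKM in cHet (log2 change 0.61, adjusted p = 0.00091). In both genes every cKO library was above every cHet library. Tmem186 (log2 change -0.48, adjusted p = 0.00191) and Tmem126b (-0.40, adjusted p = 0.0161), which work in the same membrane arm assembly complex as Ndufaf1, fell. The Tmem126b call was lost without cKO replicate 1 (adjusted p = 0.0503), cKO replicate 2 (0.0631) or cHet replicate 2 (0.0545).

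Further genes of complex I lay outside the rule. Ndufb1-ps, the row nearest in name to Ndufb1, fell (log2 change -0.58, adjusted p = 0.00325). Ndufab1, the mitochondrial acyl carrier protein that is also part of complex I, had 6.96, 6.97 and 7.48 FPKM in cKO, against 7.12, 7.49 and 7.45 FPKM in cHet (log2 change -0.04, 95% interval -0.17 to 0.098, adjusted p = 0.628). Ndufa4l2 was below the filter. Of the 7 complex I subunits encoded by mitochondrial DNA, mt-Nd5 and mt-Nd6 fell (log2 changes -0.48 and -0.61, adjusted p = 0.0388 and 0.0402) and 5 did not pass. Neither call held without a filter (adjusted p = 0.106 for mt-Nd5, 0.112 for mt-Nd6), with quantile normalization (0.2 for mt-Nd5, 0.0582 for mt-Nd6) or without cKO replicate 1, cKO replicate 2, cHet replicate 1 or cHet replicate 2 (0.0988 to 0.126), and with equal totals mt-Nd5 was at 0.0563. With quantile normalization 1 of the 7 was called higher. mt-Nd1 had 289, 268 and 324 FPKM in cKO, against 320, 327 and 239 FPKM in cHet (log2 change 0.0017, adjusted p = 0.993).

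**Figure D3:**
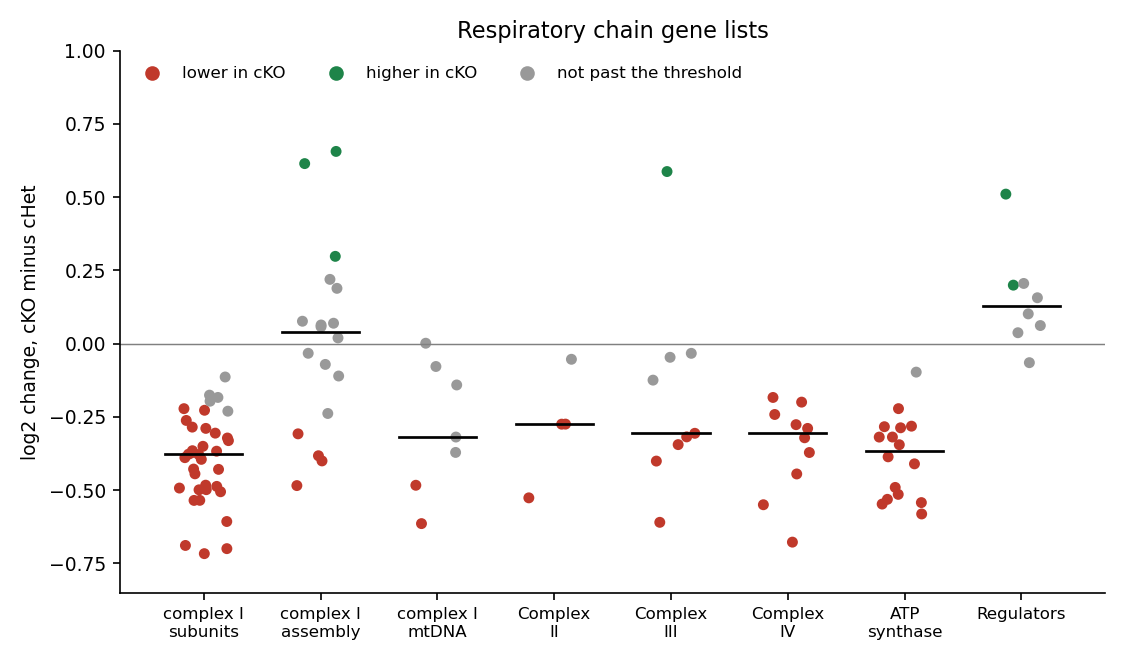
Log2 change in cKO minus cHet of each tested gene of complex I (nuclear subunits, assembly factors and mitochondrially encoded subunits), complexes II to IV, ATP synthase and regulators of mitochondrial genes (red, lower; green, higher; grey, not past the threshold; bars, list medians). Subunit lists lie mostly below 0, while assembly factors and regulators lie on both sides of it.

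The plot of the respiratory chain lists also shows the regulators, of which 8 of 10 were tested. Of these 8, 2 rose (25%), against 18.7% of all tested genes called higher, and none fell. Nrf1, nuclear respiratory factor 1, rose (6.02, 6.15 and 6.04 FPKM in cKO, against 5.22, 5.03 and 5.21 FPKM in cHet, log2 change 0.20, adjusted p = 0.0263), but the adjusted p was 0.0715 under quantile normalization, 0.0586, 0.102 and 0.0757 without cKO replicates 1, 2 and 3, and 0.111 without cHet replicate 2. Pprc1, a coactivator of the PGC-1 family, rose (log2 change 0.51, adjusted p = 0.0075). Gabpa, Yy1, Tfam and 2 others had positive log2 changes, Tfb2m had a negative one, and none of these passed the test.

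Among members with a promoter window, the NRF1 letters shown above stood in 6 of the 8 with the lowest log2 changes and in 4 of the other 24. Members with the NRF1 letters had a median log2 change of -0.52 (n = 10), and members without them -0.36 (n = 22). Over all tested genes with a window the medians were 0.016 with the letters (n = 1890) and 0.02 without them (n = 7493). Members with the YY1 letters had a median of -0.46 (n = 12), and members without them -0.37 (n = 20). Ndufv2, with the lowest log2 change, held none of the 3 motifs. These splits were made with the log2 changes known and were not tested.

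The m6A peak lists were read to see where the antibody enriched these mRNAs in each genotype. In the authors' deposited table of each genotype, a peak carries a log2 enrichment of IP over input and an adjusted p of its own. All 36 members had a peak in the cKO list, against 90.3% of tested genes, and 34 had one in the cHet list, against 89.1% of tested genes. Ndufa11 and Ndufb6 had peaks in the cKO list only. Of all 13575 tested genes, 12265 had a peak in the cKO list and 11981 had peaks in both lists. The members held 69 peaks in cKO and 72 in cHet. At least 1 shared base with a peak of the other list was found for 61 of the 69 cKO peaks (88.4%) and 70 of the 72 cHet peaks (97.2%), against 79.9% of cKO peaks and 90.1% of cHet peaks on all tested genes. A wide peak shares a base more easily, and peak spans differed between members and all tested genes, as given below. The part of span in these shares was not tested.

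Peaks on these mRNAs were most often annotated to the stop codon. Of the member peaks, 40.6% in cKO and 33.3% in cHet were annotated to the stop codon in the authors' deposited table, against 15.5% and 19.6% of the peaks on all tested genes in cKO and cHet. A further 21.7% in cKO and 25% in cHet were annotated to the 3′ untranslated region, against 38.9% in cKO and 38.3% in cHet over all tested genes. Spans include introns. Their median was 1844 bases in cKO and 797 bases in cHet for members, against 725 bases in cKO and 845 bases in cHet for all tested genes. Some peaks annotated to the stop codon cover all or nearly all of a gene. Among them are Ndufa1 in cKO (chrX:37187588-37191163) and Ndufs4 in cHet, with a span of 99606 bases in the authors' deposited table. For such peaks the annotation does not place the enrichment within the gene.

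The strongest peak of each gene was then set side by side. The 2 lists were made separately, there is 1 list per genotype and no source used here gives the scaling of IP to input, so these differences carry no test. The strongest peak was higher in cKO for 27 of the 34 members with peaks in both lists, against 32.1% of all 11981 such genes. The median difference in log2 enrichment, cKO minus cHet, was 0.34 for members and -0.32 for all such genes. The members' median strongest log2 enrichment was 2.26 in cKO and 2.22 in cHet, and that of all such genes was 2.15 in cKO and 2.63 in cHet. The differences in members ran from -0.92 for Ndufb2 to 0.55 for Ndufa7. The strongest peaks of a gene can lie at different sites in the 2 lists, so overlapping ones were also paired, a choice made after seeing the data. They overlapped in 29 of the 34 members, and in these the cKO value was higher for 25, against 34.0% of the 8760 genes of that kind, with a median difference of 0.36 for members and -0.30 for all. Input RNA is the denominator of enrichment. With the values as deposited it was lower in cKO for all of these members, also for those whose strongest peak was lower in cKO. A link between input level and the difference in enrichment was not tested.

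**Figure D4:**
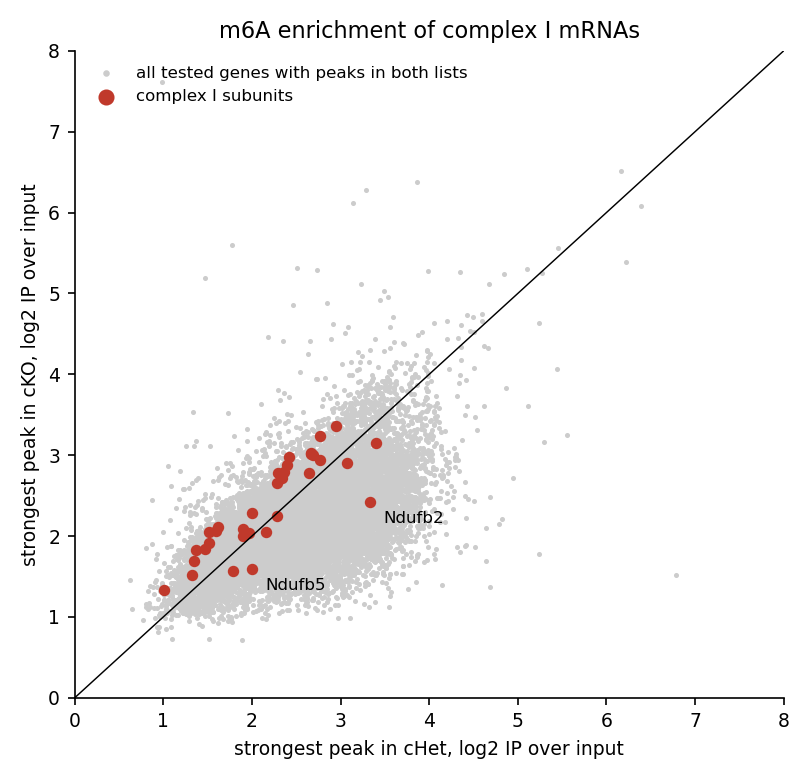
Log2 enrichment of IP over input of the strongest peak per gene in the authors' deposited table, cKO (vertical axis) against cHet (horizontal axis), for 34 complex I subunit genes (red) and all 11981 tested genes with peaks in both lists (grey), with the line of equality. Of the red points 27 lie above the line, and Ndufb2 and Ndufb5 lie furthest below it, the strongest peaks of Ndufb5 being at different sites in the 2 lists.

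The plot of strongest peaks shows most members as a band just above the line of equality and the bulk of genes below it. Ndufa7 had a peak of 2.97 in cKO and 2.42 in cHet on the log2 scale in the authors' deposited table (mm10, chr17:33824722-33826017 in cKO and chr17:33824797-33826017 in cHet, annotated as exonic). Ndufb4 had its strongest peak at the stop codon in the authors' deposited table, with log2 enrichments of 3.24 in cKO and 2.77 in cHet (chr16:37647420-37649263 in cKO and chr16:37647420-37649138 in cHet). Ndufv2 had 1 peak from chr17:66079063-66092077 in cKO, with a log2 enrichment of 2.28, where the authors' deposited table lists 3 separate peaks in cHet, the strongest at 2.01.

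A few members went the other way. Ndufb2 had a peak in the 3′ untranslated region at chr6:39602727-39603376 in both lists of the authors' deposited table, with a log2 enrichment of 2.42 in cKO and 3.34 in cHet. Ndufa12, Ndufa10 and Ndufs8 differed by -0.24 to -0.041 at overlapping peaks in the authors' deposited table. The cKO peak was the wider one in each, with 22499 bases in cKO and 6006 in cHet for Ndufa12. The spans were 33820 bases in cKO and 13003 in cHet for Ndufa10, and 3421 in cKO and 200 in cHet for Ndufs8. The part of peak width in these differences was not tested. In Ndufb5, Ndufs1 and Ndufv3 the strongest peak was lower in cKO too, but it lay at a different site in each list, and the sign depended on the site. At the cHet site of Ndufb5, in the 3′ untranslated region, the authors' deposited table gives 1.44 in cKO and 2.01 in cHet, and at its intronic cKO site 1.59 in cKO and 1.08 in cHet. Ndufs1 had 1.57 in cKO and 1.51 in cHet at its 5′ untranslated region in the authors' deposited table, where the cKO peak was strongest, and 0.93 in cKO and 1.79 in cHet at an intronic peak, where the cHet peak was strongest. Ndufv3 had 2.90 in cKO and 2.42 in cHet at the stop codon in the authors' deposited table, where the cKO peak was strongest, and 2.78 in cKO and 3.07 in cHet at a 3′ untranslated region peak, where the cHet peak was strongest.

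Other respiratory genes and assembly factors were read in the same way. In the authors' deposited table the strongest peak was higher in cKO for 30 of 35 nuclear genes of complexes II to V with peaks in both lists (median difference 0.29), and for 6 of 6 mitochondrially encoded complex I genes (median 0.34). It was higher in cKO for 5 of 18 assembly factors (27.8%, median difference -0.38). Over all 11981 tested genes with peaks in both lists, it was higher in cKO for 32.1%. Ndufaf1, whose input level rose, had 2.06 in cKO and 3.24 in cHet in the authors' deposited table, and Ndufaf4 had 2.17 in cKO and 3.03 in cHet. Tmem186 and Tmem126b, whose input fell, were lower in cKO too, at 2.23 against 3.18 in cHet and 2.99 against 3.66 in cHet. Timmdc1 and Ndufaf5, which also fell, differed by -0.046 and 0.15, and Tmem70, which rose, by -0.41.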

How the data were processed

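The authors deposited FPKM per gene for 6 input libraries and 1 peak list per genotype with a log2 fold enrichment, a p-value and an adjusted p per peak, per the file headers. The submitters' processing notes name fastp, HISAT2 and the build mm10. No source used here gives the program behind the FPKM, the peak caller or the use of strand. FPKM keeps no counts: the commonest low value times length recurred in only 12 to 26 of 174 to 230 values per library, so whole reads were not recovered and depth is unknown. Per-library IP values were not analysed here. All per-sample columns were matched to a sample.

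Genes whose mean input level reached 1 FPKM entered limma 3.58.1 in R 4.3.3 (lmFit, eBayes with trend), fitted on log2(FPKM + 1), cKO minus cHet, two-sided, without a replicate block, with Benjamini-Hochberg adjustment over 13575 genes. Log2 changes on this scale understate low genes. The fit was tested on simulated data. Named in full are the 8 lowest log2 changes, the core subunits and members standing apart. Of the lists asked, Ndufb1 and 1 assembly factor were not found. Members, lists and motifs were chosen with earlier results of these data known. Peak starts were raised by 1 to be 1-based. The values of 1 member are not reported here, though it is counted among the 36.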

Additional observations from a re-analysis of the deposited data

How the results depend on the processing

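Alternatives were another pseudocount, 2 other filters, 3 rescalings, no variance trend, a replicate block and leaving out each input library. All 36 log2 changes were negative in the main setting, and 1 sign changed in 503 values of members under alternatives: Ndufs1 at 0.0066 with equal FPKM totals. The count of members that fell was 20 with equal totals, 22 with quantile normalization, 25 without a filter and 21 with a replicate block. Of all tested genes, 10.3%, 16.25%, 6.85% and 9.76% were called lower in these settings, in the same order. Same-numbered samples correlated at -0.084, 0.04 and -0.196 in their deviations, and differently numbered ones at -0.251 to 0.291. The labels do not say whether samples of the same number were paired, and these few values cannot settle it. With the block 15 of the 39 genes of complexes II to V fell, 2 of complex IV and 1 assembly factor, and mt-Nd5, mt-Nd6, Nrf1 and Tmem126b lost their calls (adjusted p = 0.108, 0.0902, 0.11 and 0.0583). No member was called higher under any of these. Of the 31 that fell, 17 did so under all 14 alternatives. Ndufb7 and Ndufs1, not called in the main setting, were each called lower under 1 alternative (adjusted p = 0.0344 and 0.0442). Members' median log2 change was -0.2551 with equal totals and -0.2962 with quantile normalization. Genes called over the whole table were 2889 with the replicate block, against 4912 without it. Leaving out 1 library gave 2769 (without cHet replicate 2) to 5121 called genes, 3020 without cKO replicate 2, with 21 to 30 members lower and a median of -0.4394 to -0.3454. In these fits 9.32% to 18.6% of all tested genes were called lower. With peaks at adjusted p under 0.01 or a log2 enrichment of at least 1, 36 members kept a peak in cKO and 34 in cHet. The causes were not tested. With 3 libraries per genotype and no counts, a difference as small as that of Ndufs1 was not resolved in the main setting.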
